A study of Mus musculus with 54 samples.

Results

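Primary mouse microglia loaded with alpha-synuclein (aSyn) were compared with microglia that had not been given it, after the 2 populations had shared a culture for 30 min. The comparison holds 8 of the 54 libraries of the series, picked by the 30 min mark in their titles: 4 libraries of aSyn-loaded donor cells and 4 of acceptor cells, numbered 1 to 4 in both populations, and called experiments 1 to 4 here. All cells came from brains of newborn C57BL/6 mice, were grown for 7 to 10 days with supernatant of L929 cells, a fibroblast line, and were shaken off the astrocyte layer beneath them. Donors, seeded at 10000000 cells in a petri dish, received 1 µM aSyn carrying the green dye Atto-488 for 14 h. Acceptors, seeded at 2000000 cells in a T25 flask, were given no aSyn and were stained with CellTracer Violet for 15 min. After 30 min of co-culture the populations were separated again by fluorescence-based sorting and their RNA was collected. Dye, dish and seeding number changed together with aSyn, so their parts in any difference between donors and acceptors cannot be told apart. The cells were of passage 3 in experiment 1, passage 1 in experiment 2 and passage 2 in experiments 3 and 4. The labels do not say that the experiments used separate animals, so the p-values measure the spread between these samples, which may be technical. Libraries of aSyn-treated cells without co-culture (n = 4) and of untreated cells (6 libraries, summed by number to n = 4), from the same kind of culture, served as a second comparison that shares no library with the first.

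Microglia are the resident macrophages of the brain. They engulf protein aggregates through surface receptors and break them down in lysosomes, and aSyn, the main component of Lewy bodies in Parkinson's disease, is one of their cargoes. Aggregated aSyn is known to engage pattern receptors, which switch on NF-kB and with it cytokine and chemokine genes, while interferon, oxidative stress and lipid sensing each drive gene sets of their own. Cells that carry aSyn can also pass it to neighbouring cells through thin membrane bridges called tunnelling nanotubes.

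Each library counted the 3′ ends of transcripts. The donor libraries held 10296930 to 13823835 counts and the acceptor libraries 12564381 to 15362496, with 13584 to 14239 genes detected in each of the 8. Rn45s, the ribosomal RNA precursor, took 2.51 to 20.7% of the counts in donors and 1.42 to 20.3% in acceptors. The first principal component of the 8 libraries carried 33.5% of the variance and the second 22.96%. Experiment accounted for 94.7% of the spread along the second component and population for 2.18%, while along the first the shares were 56.0% and 29.8%. On the first component the donor library of experiment 4 stood alone at 103.9, with all others between -49.7 and 14.6. The experiment number was a term in the model. Experiment 4 has its own range of facility numbers, and the labels do not say what that range marks. Values without experiment 4 are given beside the main results. Summed microglial markers reached 3687 to 13886 CPM, counts scaled to a common library size, in donors and 6101 to 16308 CPM in acceptors, against 18.1 to 34.8 and 26.3 to 54.2 CPM for astrocyte markers and 1.86 to 8.17 and 2.09 to 26.4 CPM for neuronal ones. The lowest microglial sum of each population was that of experiment 4, where donors held 3687 CPM against 10828 to 13886 CPM in the other 3 experiments. Markers of other leukocytes summed to 0.853 to 9.72 CPM in donors and 0.914 to 1.71 CPM in acceptors, with 9.72 and 1.13 CPM in experiment 4. The part of these markers in the results was not tested.

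Donors and acceptors differed at 1416 of the 13169 genes tested, which is 10.8% (edgeR quasi-likelihood test, adjusted p under 0.05). Of these, 724 were higher in donors (5.5% of tested genes) and 692 were lower (5.25%). Most differences were small: 461 of the higher and 494 of the lower genes changed by less than 2-fold, leaving 263 and 198 beyond it. The direction was the same in all 4 experiments for 1294 of the 1416 genes. All 4 donor libraries lay above all 4 acceptor libraries for 436 tested genes (3.31%), 299 of them called, and below them for 332 (2.52%), 230 of them called. The call count depended on comparing each donor library with the acceptor library of its own experiment: without the experiment term 106 genes were called, 73 higher and 33 lower, all of them among the 1416. The count also depended on the other libraries in the fit: the 8 libraries alone, with the experiment term, gave 157 calls, and 39 of the 124 named calls that could be tested there held. Of the 132 called genes that the naming rule picked, counting Ccl4, which was added to them, 24 were also called without the term. Below, a p without the term is given for those that kept the call. Without experiment 1, 2, 3 or 4 in turn, 88, 94, 88 and 102 of the named genes were called, none with a reversed sign. In these bulk samples fewer cells of a type and less RNA per cell cannot be told apart.

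**Figure D1:**
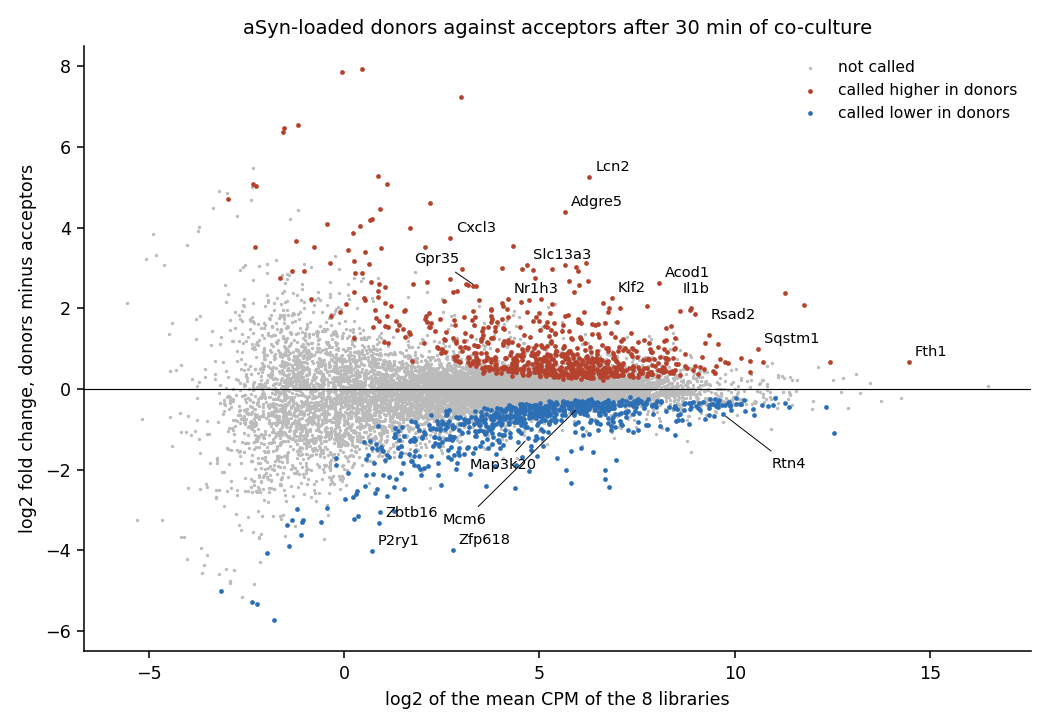
Log2 fold change of donors over acceptors at 30 min (vertical axis) against mean abundance in log2 CPM (horizontal axis), one point per gene, with called genes in colour. The 724 higher and 692 lower genes were spread over the whole range of abundance, and Adgre5 stood apart among the genes of middle abundance.

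The clearest difference was a surface receptor. Adgre5 encodes CD97, an adhesion G protein-coupled receptor of leukocytes that binds CD55, and lies at chr8:83723251-83741326 on the minus strand (mm10). The donor libraries of experiments 1 to 4 held 107, 83.5, 113 and 79.99 CPM of Adgre5, and the acceptor libraries 3.98, 2.92, 7.08 and 4.70 CPM. The groups did not overlap in any experiment, with means of 95.8 ± 16.5 and 4.67 ± 1.77 CPM (SD, n = 4 each). The log2 fold change fitted by edgeR was 4.39 with an SE of 0.19 (adjusted p = 4.5e-21). The call also held without the experiment term (adjusted p = 1.63e-14) and without any one experiment (log2 fold change 4.28 to 4.55). Ddx39, an RNA helicase gene that overlaps Adgre5 on the other strand and was looked up for that reason, was higher by 0.62 on the log2 scale (edgeR adjusted p = 0.0105), and the sources used here do not say whether strand was used in counting. The other adhesion receptors of the list gave 1 further rise and 1 fall. With Adgre5 the 12 tested gave 2 rises and 1 fall (25% called, beside 10.8% of all tested genes). Adgre1, which encodes the macrophage marker F4/80, was higher by 0.68 (edgeR adjusted p = 0.000395), and Adgra3 was lower by 1.07 (adjusted p = 0.0231). Adgra3 was called in 1 of the 4 fits that left out an experiment.

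A set of transporters, enzymes and receptors followed Adgre5 by strength of evidence. Slc13a3, a sodium-coupled dicarboxylate transporter that carries succinate, measured 25.5, 27.2, 78.8 and 50.1 CPM in donors and 2.57, 3.49, 13.1 and 3.81 CPM in acceptors. Every donor library exceeded every acceptor library (log2 fold change 3.07, SE 0.26, edgeR adjusted p = 3.89e-11, and 0.00164 without the experiment term). Gpr35, a G protein-coupled receptor on myeloid cells, held 13.9, 23.03, 13.01 and 20.99 CPM in donors against 2.43, 4.82, 2.06 and 2.92 CPM, again without overlap (log2 fold change 2.54, SE 0.30, edgeR adjusted p = 1.92e-07, and 0.00141 without the experiment term). Stra6l, which encodes a receptor for retinol-binding protein, rose by 2.20 (adjusted p = 7.85e-09, and 0.00972 without the term). Pla2g7, the phospholipase that degrades platelet-activating factor, rose by 1.28 (edgeR adjusted p = 1.83e-07), but its libraries overlapped across experiments and the call was lost without the term (adjusted p = 0.185).

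**Figure D2:**
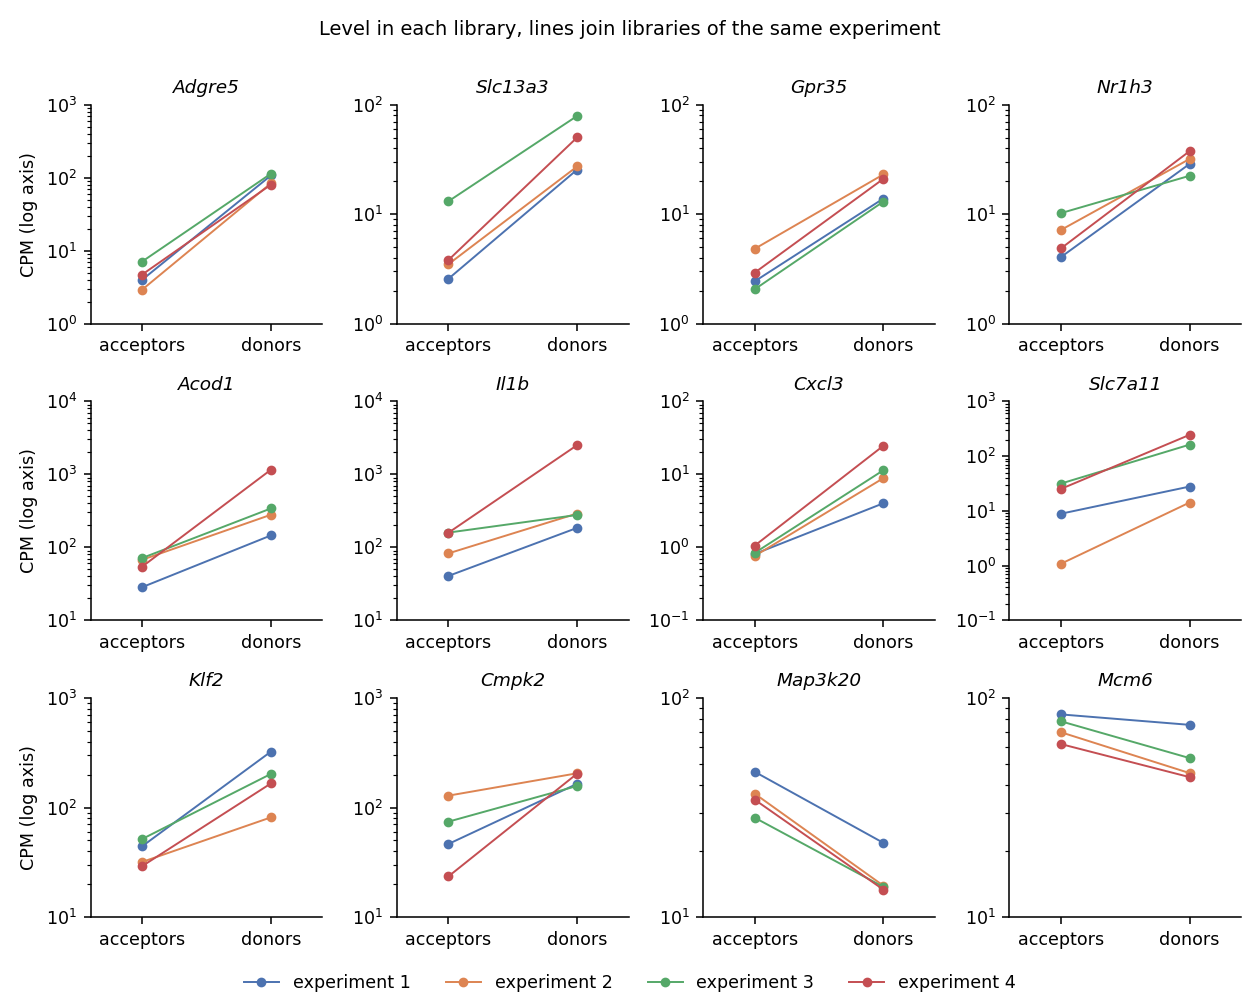
CPM in each of the 8 libraries (vertical axis, log scale) for named genes, donors and acceptors side by side, with lines joining the 2 libraries of an experiment. Adgre5, with acceptors under 8 CPM and donors at 79.99 CPM or more, shows the widest separation relative to its spread.

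Inflammatory cytokines and enzymes were higher in donors as a group. Of 25 tested, 19 rose and none fell (76% called, beside 10.8% of all tested genes). The median log2 fold change was 1.95, against -0.02 over all tested genes. The median stood at 1.00 in experiment 1, 1.33 in experiment 2, 0.82 in experiment 3 and 3.47 in experiment 4, the largest being in experiment 4. Leaving out any one experiment left 11 to 14 members called, 14 of them without experiment 4, and none was called without the experiment term. Acod1, the enzyme that makes itaconate (chr14:103046977-103056573, plus strand), held 145, 279, 340.4 and 1154 CPM in donors and 28.4, 67.4, 71.3 and 54.3 CPM in acceptors. Its donors exceeded its acceptors in all 4 experiments (log2 fold change 2.64, SE 0.53, edgeR adjusted p = 0.000863), and the change without experiment 4 was 2.23 (adjusted p = 3.27e-05). The call was lost without the experiment term (adjusted p = 0.113).

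Interleukin-1 beta (Il1b) showed the same pattern at higher abundance. Its donors held 185, 290.3, 277 and 2510.2 CPM and its acceptors 40.5, 82.5, 159 and 158 CPM, with no overlap (log2 fold change 1.95, SE 0.57, edgeR adjusted p = 0.0209). Without experiment 4 the change was 1.59 (adjusted p = 0.022), and the call was lost without experiment 1 (adjusted p = 0.111) or experiment 2 (0.0885). Lcn2, the iron-sequestering protein lipocalin-2, was most abundant in experiment 4: donors held 0.0835, 1.59, 13.8 and 591 CPM against 0.203, 0, 0.152 and 14.3 CPM, so donors were not higher in experiment 1 (log2 fold change 5.26, SE 0.61, edgeR adjusted p = 1.92e-07). Without experiment 4 the change of Lcn2 was 4.80 (adjusted p = 0.00485). Il12b, a subunit of interleukin-12, reached 63.9 CPM in the donors of experiment 4 and was at 0 in the donors of the other 3, so its call (adjusted p = 0.000442) rested on that experiment, and without it the gene fell below the filter. Tnf, the cytokine tumour necrosis factor, was added outside the naming rule with its values known and held 60.3, 64.3, 40.8 and 62.9 CPM in donors and 37.5, 30.1, 22.5 and 26.0 CPM in acceptors (log2 fold change 0.95, edgeR adjusted p = 0.0491).

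Chemokines, the proteins that draw leukocytes, followed: of 22 tested, 11 rose and 1 fell (54.5% called, beside 10.8% of all tested genes). The median log2 fold change was 1.57. Without 1 experiment 4 to 10 were called higher, the lowest count being without experiment 1, and none was called without the experiment term. Cxcl3, a ligand for the neutrophil receptor CXCR2 (chr5:90786103-90789600, plus strand), held 4.01, 8.86, 11.4 and 24.6 CPM in donors and stayed between 0.761 and 1.05 CPM in acceptors. The groups did not overlap (log2 fold change 3.75, SE 0.66, edgeR adjusted p = 0.000197). Ccl2, the monocyte attractant, measured 100.5, 135, 36.4 and 469.7 CPM against 23.6, 37.0, 20.6 and 53.4 CPM (log2 fold change 2.01, adjusted p = 0.0124). Its call was lost without experiment 1 (edgeR adjusted p = 0.0857) or experiment 2 (0.0851). Cxcl10, an interferon-induced ligand of CXCR3, measured 189, 175, 104 and 57.1 CPM against 44.96, 90.6, 43.1 and 13.8 CPM, and it is the one of these whose smallest donor value came from experiment 4 (log2 fold change 1.61, adjusted p = 0.00349). The one member that fell was Ccl4, a macrophage inflammatory protein, by 0.99 (adjusted p = 0.0207). It was chosen after its value was seen, and without experiment 4 it was not called (-0.81, adjusted p = 0.133).

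The promoters of Acod1 and Cxcl3 are shown because the 2 genes are among the named rises and each window holds a match to a binding motif of NF-kB. Each window runs from 250 bases before to 50 after the start of the gene in the RefSeq annotation of GRCm38.p6, the mm10 assembly, printed 5′ to 3′ on the gene's own strand, with the match to GGNNTTNCC in capitals. The match was sought on both strands: the capitals of Cxcl3 read as the motif, and those of Acod1 are its reverse complement. The Acod1 window lies at chr14:103046762-103047061 on the plus strand and the Cxcl3 window at chr5:90785851-90786150 on the plus strand.
Acod1: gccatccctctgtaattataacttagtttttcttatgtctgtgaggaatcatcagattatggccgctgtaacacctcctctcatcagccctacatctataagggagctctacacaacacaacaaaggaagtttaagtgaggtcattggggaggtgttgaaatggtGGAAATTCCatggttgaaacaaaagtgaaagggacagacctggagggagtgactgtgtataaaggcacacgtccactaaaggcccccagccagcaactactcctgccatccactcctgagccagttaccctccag
Cxcl3: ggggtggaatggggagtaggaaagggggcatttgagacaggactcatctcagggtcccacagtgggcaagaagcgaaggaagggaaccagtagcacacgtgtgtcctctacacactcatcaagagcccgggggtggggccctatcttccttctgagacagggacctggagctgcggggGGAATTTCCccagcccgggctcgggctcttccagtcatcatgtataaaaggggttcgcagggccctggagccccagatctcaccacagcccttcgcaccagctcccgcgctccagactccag
Counting both strands, the motif was held by 16.8% of the promoters of all tested genes with a window (10420 of 13169), by 18.4% of those of the genes that rose and 16.0% of those that fell. On the list of inflammatory cytokines and enzymes 7 of 17 windows (41.2%) held it, and on that of chemokines 6 of 14 (42.9%). A match describes letters and is not a binding site.

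Of 25 genes that regulate NF-kB, 5 rose and none fell, at a median of 0.44 (20% called, beside 10.8% of all tested genes). There were 1, 1 and 3 rises without experiments 1, 2 and 3 and 12 without experiment 4. Tnfaip2, an NF-kB-induced gene that also takes part in nanotube formation, measured 467, 393, 400 and 564 CPM in donors against 180, 142, 293 and 356 CPM in acceptors (log2 fold change 0.99, edgeR adjusted p = 0.00188). Socs3, a brake on cytokine signalling, rose by 1.64 (edgeR adjusted p = 0.0124). Rel, an NF-kB subunit, and Birc3, an inhibitor of apoptosis, rose by 0.57 and 0.88 (edgeR adjusted p = 0.0451 and 0.0102). Socs3 and Rel were each called in 1 of the 4 fits that left out an experiment, and Birc3 in 2. None of the 5 was called without the experiment term. Immediate early genes, which respond within minutes to a stimulus, gave 8 rises of 34 and no fall, at a median of 0.60. Their called share was 23.5%, beside 10.8% of all tested genes. The medians by experiment were 0.96, 1.12, 0.17 and -0.25. Fos and Fosb, also on this list, changed by -0.47 to 0.36 and by 1.02 to 2.13 with 1 experiment left out. They were called in 0 and 1 of these 4 fits. The list gave 5 or 6 rises without experiment 1, 2 or 3 and 13 without experiment 4. Without the experiment term 3 were called.

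Klf2, a transcription factor that restrains inflammatory genes (chr8:72319033-72321656, plus strand), stood out among the immediate early genes. Its donors held 324, 81.2, 203 and 166 CPM and its acceptors 44.3, 31.8, 51.6 and 29.2 CPM, without overlap (log2 fold change 2.27, SE 0.34, edgeR adjusted p = 1.83e-05, and 0.00141 without the experiment term). Fosl1, a subunit of AP-1, was at 0 CPM in all 4 acceptor libraries and at 0, 0.839, 3.27 and 3.61 CPM in donors. Taking 3 counts per library as the floor, the donor mean was at least 8.94-fold higher (edgeR adjusted p = 0.00297). Gadd45b, a stress-induced growth arrest gene, rose by 1.47 (adjusted p = 0.000337), and Klf10, a repressor induced by transforming growth factor beta, by 1.00 (adjusted p = 0.000136, and 0.00743 without the term).

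Receptors that sense attractants gave 5 rises of 23 tested and no fall, at a median of 0.46. The called share was 21.7%, beside 10.8% of all tested genes, and 2 were called without the experiment term. Leaving out 1 experiment left 3 to 4 members called. Cmklr1, the receptor of chemerin, held 86.8, 79.7, 106 and 124 CPM in donors and 21.7, 47.1, 47.6 and 20.1 CPM in acceptors (log2 fold change 1.63, edgeR adjusted p = 0.000447, and 0.0422 without the experiment term). Ccr1, which binds CCL3 and CCL5, rose by 2.17 (edgeR adjusted p = 0.000223, and 0.0471 without the term). The formyl peptide receptors Fpr1 and Fpr2, sensors of bacterial and mitochondrial peptides, rose by 1.88 and 2.40 (edgeR adjusted p = 0.0197 and 0.00526). Fpr1 was called in 1 of the 4 fits that left out an experiment, and without experiment 4 its change was 1.20. P2rx4, an ATP-gated channel, rose by 0.51 (adjusted p = 0.00898) and was called in 2 of the 4 fits that left out an experiment. P2ry1, an ADP receptor that is not on this list, was nearly limited to acceptors. It held 2.03, 2.98, 5.03 and 2.27 CPM there and 0.251, 0, 0.569 and 0 CPM in donors (log2 fold change -4.01, SE 0.68, edgeR adjusted p = 0.000113, and 0.0164 without the experiment term).

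Phagocytic and pattern receptors split in direction, with 4 rises and 2 falls of 32. The called share was 18.8%, beside 10.8% of all tested genes, and no member was called without the experiment term. Mertk, which recognises dying cells through bridging proteins, rose by 0.64 (edgeR adjusted p = 0.00413), and Tlr1, a partner of Toll-like receptor 2, by 1.69 (adjusted p = 0.00184). The Fc receptor Fcgr2b rose by 1.43 (edgeR adjusted p = 0.0139). The scavenger receptors Lrp1 and Scarb1 fell by 0.64 and 0.63 (edgeR adjusted p = 0.00333 and 0.0173). Scarb1 was called in 1 of the 4 fits that left out an experiment. Trem2, the lipid-sensing receptor of microglia, illustrates the weight of experiment 4. Donors held 501, 314, 366 and 31.8 CPM of Trem2 and acceptors 665, 507, 586 and 550 CPM, so every donor library was below every acceptor library, and the change was not called (log2 fold change -1.28, edgeR adjusted p = 0.135). Without experiment 4 it was smaller and called (-0.59, adjusted p = 0.000249).

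Interferon-stimulated genes pointed one way in all 36 tested members, with a median log2 fold change of 0.87. Of these, 9 were called, all of them higher (25%, beside 10.8% of all tested genes). The count moved with the experiments that were kept. It was 0 without experiment 1, 19 without experiment 2, 1 without experiment 3 and 4 without experiment 4, and it was 0 without the experiment term. The medians by experiment were 0.97, 0.07, 0.58 and 2.81, so experiment 2 held almost no difference. Rsad2, the antiviral enzyme viperin (chr12:26442746-26456452, minus strand), held 611, 1005, 376 and 963 CPM in donors and 164, 738, 133 and 67.0 CPM in acceptors, groups that overlap across experiments (log2 fold change 1.87, edgeR adjusted p = 0.0159). Rsad2 was called in 2 of the 4 fits that left out an experiment. Cmpk2, its neighbouring antiviral gene, held 165, 205, 157 and 204 CPM against 46.4, 128, 74.3 and 23.5 CPM without overlap (log2 fold change 1.67, SE 0.45, edgeR adjusted p = 0.0135, and 0.333 without the experiment term).

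The interferon genes were also set beside the cells without co-culture. Of the 36 members 0 were called between aSyn-treated and untreated cells, 27 had a positive fold change there and the median was 0.33. For Cmpk2 the untreated cells averaged 232.4 ± 305 CPM (SD, n = 4, same-numbered libraries summed) and the aSyn-treated ones without co-culture 225.8 ± 45.7 CPM (SD, n = 4), while the acceptors averaged 68.1 ± 45.2 CPM and the donors 183 ± 25.4 CPM (SD, n = 4 each). The acceptor mean lay below the untreated mean for all 36 members, and the donor mean lay below the aSyn-treated mean for 31. Over all 13169 tested genes these counts were 7081 and 6799. Neither of these gaps was tested, and for Cmpk2 the SD of the untreated libraries exceeded their mean. Promoters of Rsad2 and Oasl1, the oligoadenylate synthetase-like gene, are shown because their windows each hold 2 matches to the interferon-stimulated response element TTTCNNTTT, in capitals, on either strand. Their windows lie at chr12:26456403-26456702 on the minus strand and chr5:114922990-114923289 on the plus strand of the same assembly.
Rsad2: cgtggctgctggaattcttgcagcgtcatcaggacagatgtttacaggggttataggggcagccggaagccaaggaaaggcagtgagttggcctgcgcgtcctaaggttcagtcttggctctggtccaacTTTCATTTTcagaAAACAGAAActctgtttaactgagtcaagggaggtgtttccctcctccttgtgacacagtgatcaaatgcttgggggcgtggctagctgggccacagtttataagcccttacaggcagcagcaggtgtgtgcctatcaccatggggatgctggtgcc
Oasl1: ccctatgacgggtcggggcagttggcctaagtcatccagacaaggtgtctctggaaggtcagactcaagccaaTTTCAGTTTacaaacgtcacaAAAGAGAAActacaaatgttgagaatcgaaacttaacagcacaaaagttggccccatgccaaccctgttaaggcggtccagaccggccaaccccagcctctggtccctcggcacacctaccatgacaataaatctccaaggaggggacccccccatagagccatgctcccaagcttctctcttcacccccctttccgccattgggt
The element was held by 18 of the 26 windows of interferon-stimulated genes (69.2%), against 8.06% over all tested genes, 11.4% of the genes that rose and 8.56% of those that fell.

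**Figure D3:**
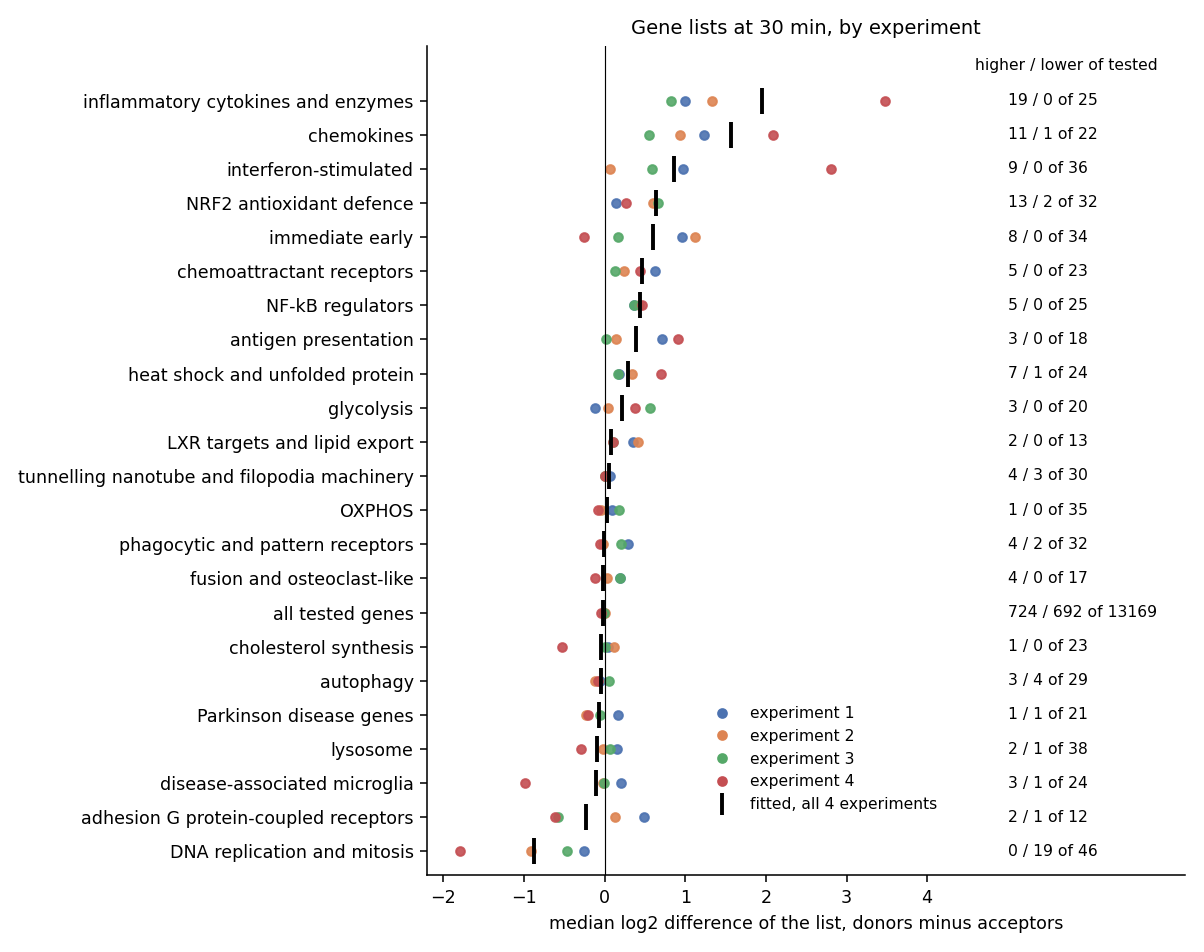
Median log2 difference of donors over acceptors at 30 min (horizontal axis) for each gene list (rows), with one point per experiment, a bar for the fit over all 4 experiments and, at the right, the members called higher and lower of those tested. Inflammatory cytokines and enzymes lie farthest right with a fitted median of 1.95 and DNA replication and mitosis farthest left with -0.87, and experiment 4 is the outermost point of both.

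Genes of the antioxidant response under NRF2 rose in 13 of 32 tested members and fell in 2, with a median of 0.64. This is 46.9% called, beside 10.8% of all tested genes, and none was called without the experiment term. Slc7a11, the cystine importer that feeds glutathione synthesis, held 27.7, 14.2, 162 and 244.4 CPM in donors and 8.84, 1.08, 31.5 and 25.1 CPM in acceptors (log2 fold change 2.57, edgeR adjusted p = 1.03e-05). Donors exceeded acceptors in each experiment although the levels themselves differed between experiments, and without the experiment term its adjusted p was 0.408. Sqstm1, the autophagy adaptor p62, was higher without overlap at 1443, 2221, 2055 and 2483 CPM against 866, 847, 1172 and 1229 CPM (log2 fold change 0.98, edgeR adjusted p = 8.72e-05). The quinone reductase Nqo1 rose by 1.73 (adjusted p = 0.00315), and ferritin heavy chain Fth1 and biliverdin reductase Blvrb by 0.68 and 0.75 (adjusted p = 0.00126 and 0.00012). The metallothionein Mt2 fell by 1.26 (adjusted p = 0.00062).

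Of the NRF2 windows 8 of 26 (30.8%) held TGACNNNGC, the antioxidant response element, against 14.7% over all tested genes. Leaving out experiment 2 or 3 brought the list to 6 rises, and leaving out experiment 1 or 4 gave 13 and 14. Heat shock and unfolded protein genes rose in 7 of 24 and fell in 1 (median 0.29). This is 33.3% called, beside 10.8% of all tested genes, and 2 were called without the experiment term. Herpud1, part of the disposal of misfolded proteins from the endoplasmic reticulum, led this list at 66.6, 86.3, 47.6 and 44.8 CPM in donors and 19.6, 27.6, 21.4 and 22.03 CPM in acceptors, with no overlap (log2 fold change 1.397, edgeR adjusted p = 2.71e-06, and 0.00669 without the experiment term). Chac1 and Trib3, both induced by the stress factor ATF4, rose by 1.71 and 1.45 (adjusted p = 7.12e-05 and 0.000863, and 0.0121 for Chac1 without the term), and Hspa8, a constitutive chaperone, by 0.44 (adjusted p = 0.00526).

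Cell division genes were lower in donors. Of 46 tested genes of DNA replication and mitosis, 19 fell and none rose (41.3% called, beside 10.8% of all tested genes). No member had a positive fold change (median -0.87). Mcm6, a subunit of the replicative helicase (chr1:128331590-128359664, minus strand), held 75.4, 45.4, 53.2 and 43.5 CPM in donors and 84.2, 69.8, 78.3 and 61.6 CPM in acceptors. Donors were lower in each experiment although the libraries overlap across them (log2 fold change -0.46, SE 0.09, edgeR adjusted p = 0.000836, and 0.464 without the experiment term). The further helicase subunits Mcm3 and Mcm7 fell by 0.58 and 0.67 (adjusted p = 0.00298 and 0.00371), cyclin A2 (Ccna2) by 1.12 (adjusted p = 0.00387) and the spindle checkpoint kinase Bub1b by 1.15 (adjusted p = 0.00495). The list's median was -0.25 in experiment 1, -0.91 in experiment 2, -0.47 in experiment 3 and -1.80 in experiment 4. Without 1 experiment 6 to 18 members were called, 6 of them without experiment 4, and without the experiment term none was. The acceptor mean was below the untreated mean for 44 of the 46 members, against 7081 of all 13169 tested genes, a difference that was not tested.

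The Mcm6 promoter is shown for its match to the E2F motif TTTCGCGC, which in its reverse form stands in capitals, and the window lies at chr1:128359656-128359955 on the minus strand of GRCm38.p6.
Mcm6: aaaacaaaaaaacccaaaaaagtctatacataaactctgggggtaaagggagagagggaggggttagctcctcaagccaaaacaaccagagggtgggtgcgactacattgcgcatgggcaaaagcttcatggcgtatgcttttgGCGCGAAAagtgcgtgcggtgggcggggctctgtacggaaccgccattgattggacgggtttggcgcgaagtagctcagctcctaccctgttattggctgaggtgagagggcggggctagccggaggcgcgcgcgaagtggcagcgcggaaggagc
The motif was found in 4 of 37 windows of the list (10.8%), in 0.653% of all tested genes, in 1.07% of those that fell and in none of the 571 windows of those that rose.

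Other large falls were of single genes. Zfp618, a zinc finger gene, fell from 19.98, 2.15, 9.06 and 20.4 CPM in acceptors to 0.668, 0.0932, 1.14 and 1.38 CPM in donors (log2 fold change -3.99, edgeR adjusted p = 4.22e-07, and 0.0485 without the experiment term). Zbtb16, which encodes the transcription factor PLZF, fell by 3.32 (adjusted p = 0.00062, and 0.00873 without the term), and Il1rl1, the receptor of interleukin-33, by 3.05 (adjusted p = 0.00404, and 0.254 without it). The strongest evidence for a fall was at Map3k20, a kinase of the ribotoxic stress response, which held 21.8, 13.9, 13.7 and 13.3 CPM in donors and 46.0, 36.6, 28.4 and 34.3 CPM in acceptors (log2 fold change -1.22, SE 0.14, edgeR adjusted p = 1.37e-07, and 0.00354 without the term). Spred1, an inhibitor of Ras signalling, fell by 0.91 and Rtn4, the reticulon Nogo, by 0.61 (adjusted p = 8e-06 and 1.93e-05, and 0.015 and 0.016 without the term). Donor and acceptor libraries did not overlap for any of these 6 genes.

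Among large rises outside the lists, Thbs1, the matrix protein thrombospondin 1, held 11.1, 12.03, 26.9 and 98.2 CPM in donors and 1.01, 1.20, 2.06 and 8.83 CPM in acceptors (log2 fold change 3.54, edgeR adjusted p = 1.82e-05). Spic, a transcription factor of iron-recycling macrophages, rose by 3.98 (adjusted p = 2.5e-05) at low counts, with 20.4 CPM in the donors of experiment 4 and at most 1.78 in the others. Without the experiment term neither was called (adjusted p = 0.217 and 0.225). Ocstamp, a fusion gene of osteoclasts, rose by 4.19 (adjusted p = 0.000706, and 0.0311 without the term) at 5.10, 3.08, 1.35 and 2.67 CPM against 0.203, 0.380, 0 and 0 CPM. Of the 17 genes on the list of fusion and osteoclast-like genes, 4 rose and none fell (23.5% called, beside 10.8% of all tested genes). The list's median was -0.02, and 8 of the 17 had a positive fold change. Among the rises were Acp5, the tartrate-resistant acid phosphatase, by 2.61 (adjusted p = 1.82e-05, and 0.00348 without the experiment term) and Mmp9, a matrix protease, by 1.73 (adjusted p = 0.0012). Dcstamp, also on this list, changed by -1.88 to -0.24 with 1 experiment left out and was called in 0 of these 4 fits.

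Lipid and sugar genes were looked at next. Nr1h3, which encodes the oxysterol sensor LXR alpha (chr2:91184061-91202834, minus strand), held 28.7, 31.9, 22.4 and 37.6 CPM in donors and 4.05, 7.16, 10.2 and 4.86 CPM in acceptors (log2 fold change 2.23, SE 0.36, edgeR adjusted p = 6.46e-05, and 0.00132 without the experiment term). Of the 13 LXR targets and lipid export genes tested, 2 were called, Nr1h3 itself among them, with a median of 0.08. Of cholesterol synthesis genes 1 of 23 was called, of glycolysis genes 3 of 20 and of oxidative phosphorylation genes 1 of 35. The called shares were 15.4% for LXR targets, 4.35% for cholesterol synthesis, 15.0% for glycolysis and 2.86% for oxidative phosphorylation, beside 10.8% of all tested genes. The glucose transporter Slc2a1 rose by 0.74 and hexokinase 2 (Hk2) by 0.93 (adjusted p = 0.0103 and 0.00111). Slc2a1 was called in 2 of the 4 fits that left out an experiment.

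Of 38 lysosomal genes 2 rose and 1 fell (7.89% called, beside 10.8% of all tested genes), with a median of -0.10. Atp6v1h, a subunit of the proton pump, rose by 0.51 and Lamp2, a lysosomal membrane protein, fell by 0.32 (adjusted p = 0.00448 and 0.00861). Lamp2 was called in 2 of the 4 fits that left out an experiment. Autophagy genes gave 3 rises and 4 falls of 29 (24.1% called). Genes linked to Parkinson's disease gave 1 rise and 1 fall of 21 (9.52% called). These were the small GTPase Rab32 by 0.72 and the lipid transport protein Vps13c by -0.65 (edgeR adjusted p = 0.00423 and 0.0168). Vps13c was called in 1 of the 4 fits that left out an experiment. Nanotube and filopodia genes gave 4 rises and 3 falls of 30 (23.3% called). Baiap2, a membrane-bending protein of filopodia, rose by 0.86 (adjusted p = 0.000457, and 0.0143 without the experiment term), and Exoc4, a vesicle-tethering subunit of the exocyst, fell by 0.50 (adjusted p = 0.0125). Exoc4 was called in 2 of the 4 fits that left out an experiment.

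Microglial identity genes gave 2 rises and no fall of 19 tested, a called share of 10.5% beside 10.8% of all tested genes. Of the 19, 8 had a positive and 11 a negative fold change, at a median of -0.12. Without experiment 4 the list gave 3 rises and 2 falls, and its median was 0.0952. Tmem119, a microglial surface protein, rose by 0.90 (adjusted p = 0.0399), a call that was lost without experiment 1, 2 or 3 (adjusted p = 0.145, 0.109 and 0.0999). Disease-associated microglia genes gave 3 rises and 1 fall of 24 (16.7% called). Fabp5, a fatty acid carrier, rose by 0.76 without overlap (edgeR adjusted p = 7.18e-06). Lpl, a lipase, fell by 1.09 (edgeR adjusted p = 0.0253) and was called in 1 of the 4 fits that left out an experiment. No astrocyte (12 tested), oligodendrocyte (10), neuronal (6) or other leukocyte marker (2) was called by edgeR. Of 6 monocyte and border macrophage markers tested, 3 had a positive and 3 a negative fold change. The called ones were Pf4 and Ms4a7, which rose by 1.03 and 0.50 (adjusted p = 0.00106 and 0.0431), and Ms4a7 was called in 1 of the 4 fits that left out an experiment. The summed level of those markers was 1006 to 1289 CPM in donors and 846 to 1201 CPM in acceptors. Pecam1, an endothelial and leukocyte adhesion gene, rose by 3.44 (adjusted p = 0.000806, and 0.0107 without the experiment term) from under 0.4 CPM. The summed level of fibroblast and endothelial markers was 6.52 to 12.6 CPM in donors and 3.93 to 19.5 CPM in acceptors. The part of other cells in the result was not tested.

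A contrast without co-culture, aSyn-treated against untreated libraries, gave 2524 called genes (19.2%). The labels list no CellTracer Violet staining and no seeding number for these libraries. Comparing the 2 gaps therefore cannot tell co-culture apart from staining, dish and seeding. Of the 1416 genes called at 30 min, 870 were called in both (61.4% of the 30 min list and 34.5% of the other), 869 of them in the same direction, and 1370 of the 1416 (96.8%) had the same sign. Adgre5 changed by 4.77 there and by 4.39 at 30 min, and Slc13a3 by 3.07 in both. The list of DNA replication and mitosis had 41 of 46 members called lower in that contrast and 19 at 30 min. The test of the difference between the 2 gaps called 5 genes (0.038% of tested), with 1027 at an unadjusted p under 0.05 and 24 by DESeq2. Mybpc3, a myosin-binding protein gene, had the largest: its gap was -0.50 at 30 min and 2.25 without co-culture, a difference of -2.76 (SE 0.46, edgeR adjusted p = 0.0056). Atg12, which joins with ATG5 in autophagosome formation, fell by 0.32 at 30 min and rose by 0.47 without co-culture, a difference of -0.79. Its fall at 30 min was not called without any one of the 4 experiments (adjusted p 0.0572 to 0.18). Slc6a8, Oga and Galnt6 differed by -0.90, -0.76 and -0.88. Without the experiment term edgeR called 0 genes in this test. Leaving out experiment 1, 2 or 3 left 1 call each, and leaving out experiment 4 left none of the 5 but 2 other genes, both higher.

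**Figure D4:**
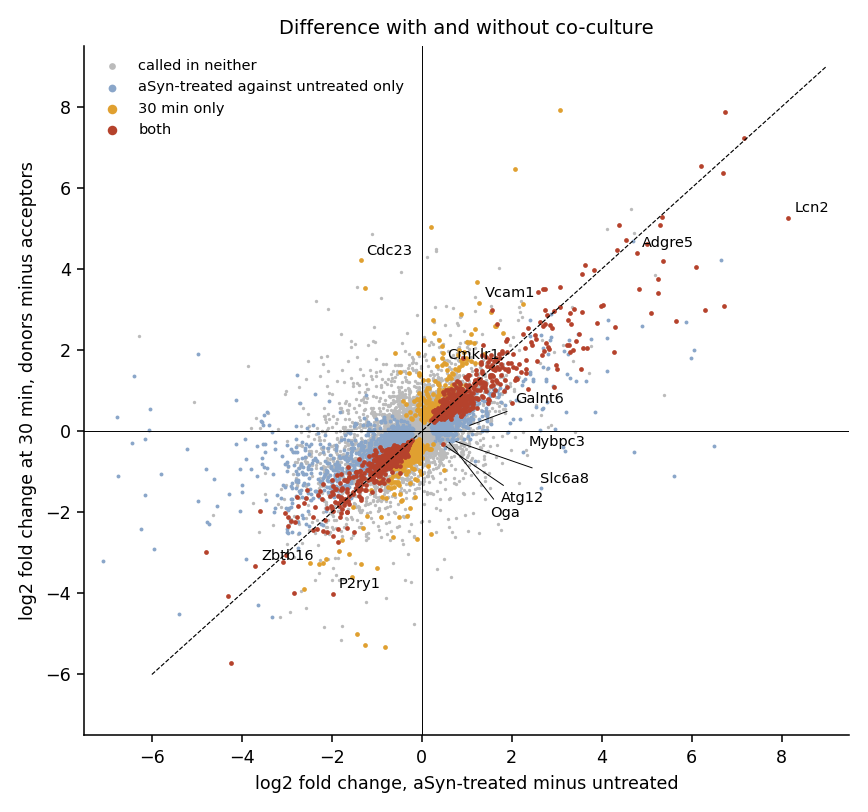
Log2 fold change of donors over acceptors at 30 min (vertical axis) against that of aSyn-treated over untreated cells without co-culture (horizontal axis), one point per gene, coloured by the contrast that called it, with the line of equal values dashed. Of the 1416 genes called at 30 min, 1370 had the same sign on both axes and 870 were called in both contrasts.

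The gap between donors and acceptors was also measured in other libraries of the series after 0, 15, 60, 150 and 300 min of co-culture. Each population had 3 or 4 libraries at each time. Experiment 4 had no libraries at 0 min, experiment 2 no donors at 60 min and experiment 3 no acceptors at 300 min. Called genes numbered 564, 1260, 882, 684 and 182. Of the 1416 genes of 30 min, 393, 808, 548, 454 and 146 were called at those times, which is 27.8, 57.1, 38.7, 32.1 and 10.3% of the 30 min list and 69.7, 64.1, 62.1, 66.4 and 80.2% of the other lists. The sign was the same for 97.6, 99.1, 97.7, 96.3 and 95.6% of the 1416. Tests of the gap at 30 min against the gaps at 0, 15 and 60 min called 0 genes each (0%), with 3.33, 1.94 and 3.50% of genes at an unadjusted p under 0.05 and 2 by DESeq2 in each. Against 150 min 1 gene was called (0.00759%), the muscle ubiquitin ligase gene Fbxo32, by 1.88, and 0 without experiment 1, 2 or 3 or without the experiment term. Against 300 min 3 were called (0.0228%): Klf2 by 2.58, Dmxl2, a regulator of proton pump assembly, by 1.08 and the chaperone subunit Pfdn4 by 0.96 (edgeR adjusted p = 0.042 for the 3). That count was 0 without experiment 1, without the experiment term, without the filter on low counts and with untreated libraries not summed.

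Within the lists the medians differed between times, without a test of trend, and the times did not hold the same experiments. The median of the immediate early genes was 0.98 at 0 min, 0.94 at 15 min and 0.60 at 30 min. It was 0.19 at 60 min, 0.13 at 150 min and -0.13 at 300 min. In order of time 11, 10, 8, 5, 2 and 1 members were called higher. Without experiment 4, which is missing at 0 min, the 30 min median was 1.02, with 13 members called. The median of the inflammatory cytokines and enzymes lay between 1.59 and 2.26 at all 6 times, with 7 to 19 members called higher. DNA replication and mitosis genes had a median between -0.92 and -0.65, with 1 to 19 called lower. Interferon-stimulated genes had a median between 0.42 and 1.01, with 0 to 9 called higher. The gap of Adgre5 was 4.27, 4.12, 3.95, 3.82 and 4.02 at 0, 15, 60, 150 and 300 min, against 4.39 at 30 min. Klf2 had gaps of 2.35, 2.55, 2.29, 1.02 and -0.32 at these times, against 2.27 at 30 min, so the difference called against 300 min lay in a gap near 0 there. The gap of Acod1 was 2.78, 2.41, 2.38, 1.84 and 1.17, against 2.64 at 30 min.

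**Figure D5:**
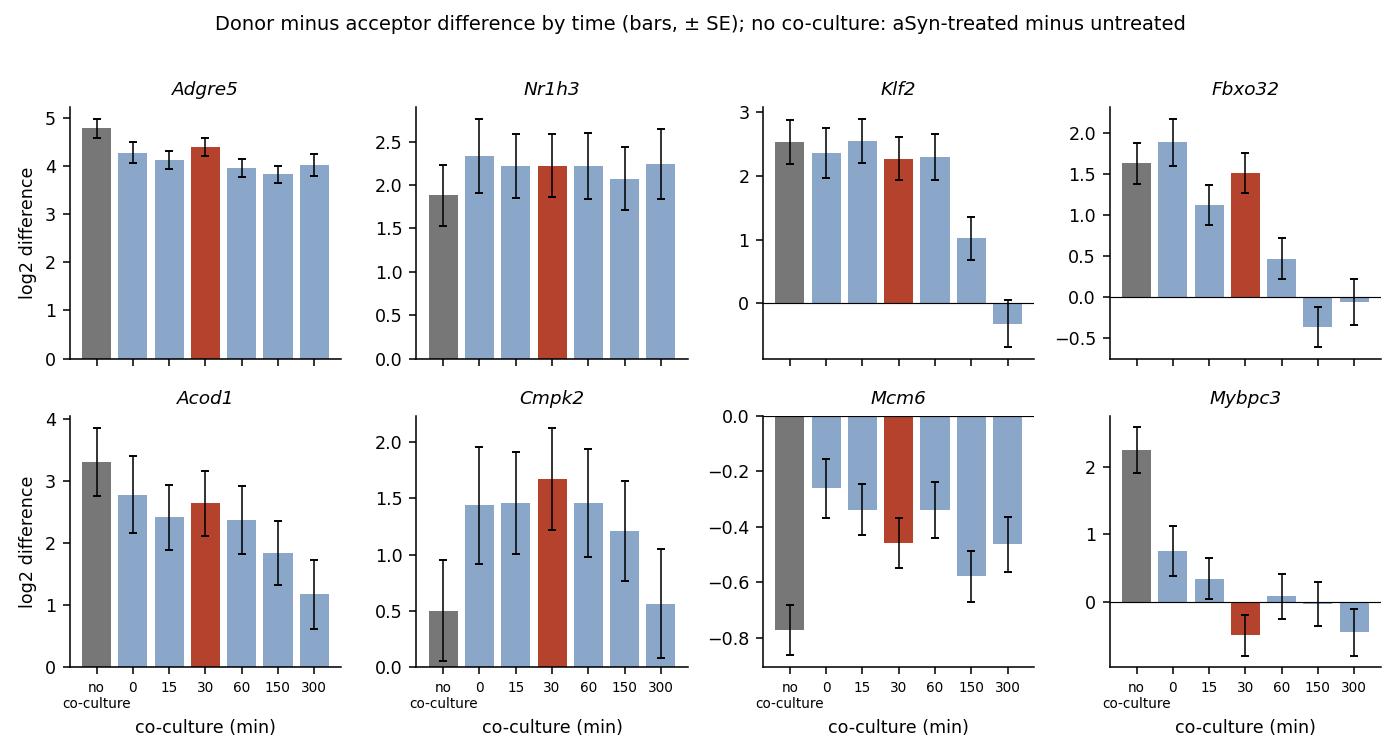
Fitted log2 difference of donors minus acceptors (vertical axis; bars, with SE) for 8 genes, by minutes of co-culture (horizontal axis), with 30 min in red and aSyn-treated minus untreated cells in grey. Adgre5 lay between 3.82 and 4.77 throughout, and Klf2 was below 0 only at 300 min.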

How the data were processed

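The libraries were QuantSeq 3′ FWD libraries of sorted primary mouse microglia. The authors deposited raw counts per gene, per the file headers. STAR, Partek, DESeq2 and the build mm10 are named in the submitters' processing notes, without roles or versions, and the annotation and strand setting of the counting are not given in the sources used here. The authors' normalized table was not used here. The 8 libraries were found by title, and comparisons rest on the whole table of 52 units in 14 groups, in which untreated libraries of the same number were summed. Genes with at least 10 counts in enough libraries were kept (13169 of 16632), scaled by TMM and tested with edgeR 4.0.16 in R 4.3.3 (quasi-likelihood F test, 2-sided, Benjamini-Hochberg adjusted p under 0.05), with the experiment number as a block. CPM values are TMM-scaled. The scripts were tested on simulated data.

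The libraries were paired by number. Deviations of same-numbered donor and acceptor libraries from their group means correlated at 0.311, 0.454, 0.526 and 0.379. For all 4 donor libraries the same-numbered acceptor library gave the highest correlation, so the blocked fit was the main one. Other numbers had a mean of -0.136, which is no separate evidence. Centring on group means pushes it below 0 when same numbers correlate. The biological coefficient of variation was 20.97% with the block and 38.12% without. DESeq2 1.42.0, another scaling, filters, left-out experiments and a fit of the 8 libraries alone were alternatives. The floor of 3 counts was 0.250 CPM in donors and 0.216 in acceptors, a mean over libraries. Floors cover counting error only, since no molecular identifiers are mentioned.

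Named genes came from a rule. Among called genes with the same direction in all 4 pairs and a mean of at least 1 CPM in the higher population, it took the 12 largest rises, the 12 largest falls and the 6 smallest p-values each way. It also took from each list the first 2 tested members and up to 6 called ones, and up to 5 called genes from each comparison of gaps. Ccl4 was added to these genes outside the rule. Of the resulting 180 genes, 85 overlap another annotated gene in GENCODE vM21, 69 of them on the opposite strand, so their counts may be shared. The members and lists were chosen with earlier results of these data known.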

Additional observations from a re-analysis of the deposited data

Results flagged for a closer look

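The log2 difference of donors minus acceptors was examined for 86 genes of the naming rule that the text names. Of these, 6 had 1 experiment far from the other 3 (a gap past Dixon's critical value), where chance gives about 1 in 20. In 5 of them that experiment was experiment 4: Il12b at 7.67, Acod1 at 4.41, Fpr2 at 4.52, Trem2 at -4.10 and Lpl at -2.40. Mybpc3 stood apart in experiment 2, at -0.261. Of the 30 lists, counting all tested genes as one, only nanotube and filopodia machinery had an experiment apart, experiment 1, with a median of 0.0722.

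The gap between loaded and unloaded cells at 30 min differed from the gap without co-culture for Mybpc3 by -2.76, for Atg12 by -0.786, for Slc6a8, the creatine transporter, by -0.901, for Oga, the enzyme that removes O-linked N-acetylglucosamine, by -0.760 and for Galnt6, an enzyme that starts O-glycosylation, by -0.875. It exceeded the gap at 150 min for Fbxo32 by 1.88, and the gap at 300 min for Klf2 by 2.58, Dmxl2 by 1.08 and Pfdn4 by 0.959. These are edgeR tests of the difference itself, with an adjusted p of 0.0056 for Mybpc3.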

How the results depend on the processing

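Without the replicate block, 106 genes were called between donors and acceptors and 329 between aSyn-treated and untreated cells, against 1416 and 2524 with it, and 0 in the comparisons of the 30 min gap with the gaps without co-culture, at 150 min and at 300 min. A fit of the 8 libraries alone called 157 genes. Leaving out one experiment gave 721 to 1122 calls at 30 min (862, 729, 721 and 1122 without experiments 1 to 4), of which 760, 646, 663 and 866 were among the 1416, and 1380 to 2101 without co-culture. For the gap comparisons it gave 1 to 2 against no co-culture (without experiment 4, 2 genes outside the 5 reported), 0 to 2 against 150 min and 0 to 2 against 300 min. DESeq2 with the block called 1709 genes at 30 min, 1392 of them among the 1416, and 24, 2, 2, 2, 8 and 14 against no co-culture, 0, 15, 60, 150 and 300 min, the first with 6127 genes given no adjusted p. Against 300 min no gene was called without a filter on low counts (0) or with untreated libraries not summed (0). Fewer samples enter the fits with an experiment left out or the 8 libraries alone; for the other changes the cause was not tested. No called named gene reversed its sign under the alternatives run. The medians of some lists did: for example, microglia identity went from -0.116 to 0.0136 without the block and 0.0952 without experiment 4, and lysosome from -0.0975 to 0.0335 without experiment 4. Scaling by DESeq2's size factors in edgeR gave 1426 calls at 30 min and removal of Rn45s 1431. Low counts limit the smallest levels: 3 counts corresponded to 0.250 CPM in donors.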
